A study of Mus musculus with 16 samples.

Results

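Dual-mark regions are stretches of chromatin acetylated at histone H3 lysine 27 (H3K27ac) in the medulloblastomas of both mouse genotypes studied and also carrying trimethylation of lysine 36 (H3K36me3) somewhere within them in both. They were taken from the H3K27ac list of Sufu;Spop double knockout (DKO) tumours. A region on chromosomes 1 to 19 was kept when it shared at least 1 base with an H3K27ac region of SmoM2 tumours and with an H3K36me3 region of each genotype. This left 1032 of 28987 DKO H3K27ac regions. The regions were thus chosen by positions in all 4 histone lists, so overlaps, widths and enrichment of the histone marks describe the regions and support nothing further. The Gli2 lists were not used by the rule.

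Chromatin immunoprecipitation and sequencing was done on medulloblastomas of mice at postnatal day 13, of genotype SmoM2 overexpression or Sufu;Spop double knockout. SmoM2 is an activated form of Smoothened, which signals downstream of the Hedgehog receptor, whereas loss of Sufu and Spop removes a binding partner and a degradation adaptor that hold Gli proteins in check. Each genotype had 2 libraries each for Gli2, H3K27ac and H3K36me3 and 2 of input DNA, 16 in all, and the 12 antibody libraries stand behind 6 peak lists, 1 per genotype and antibody. No label ties a library to an animal, and the driver of SmoM2 or of the knockouts is not given here. Because each list merges its libraries, differences between genotypes are without replicates, and their read depth is unknown. Positions are in mouse build mm9, and genes at them were not analysed here.

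H3K27ac is written by CBP and its paralogue at active promoters and enhancers, and opposes the repressive methylation of the same lysine. H3K36me3 is written by SETD2, which travels with elongating RNA polymerase, so it builds up over the bodies of transcribed genes behind the promoter and is usually scarce at the promoter itself. Gli2 is the main activating transcription factor of the Hedgehog pathway and drives growth of granule neuron progenitors, the cells from which these tumours arise. In bulk tumours, an overlap of regions does not show that both marks sit on the same histone or in the same cell.

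Contact between shared acetylated regions and H3K36me3 was uncommon. Of the 28987 DKO H3K27ac regions, 52.8% shared a base with a SmoM2 H3K27ac region, 11.8% with DKO H3K36me3, 10.1% with SmoM2 H3K36me3 and 8.50% with H3K36me3 of both genotypes. Among the 15299 regions shared with SmoM2 tumours, the dual-mark regions made up 6.75% (95% Wilson interval 6.36–7.15%), a further 618 touched H3K36me3 in 1 genotype only and 13649 (89.2%) touched none. All intervals here cover counting error only. Counted by base, H3K36me3 covered 7.53% of the shared acetylated sequence in DKO tumours and 5.43% in SmoM2 tumours. It covered 6.58% and 5.54% of chromosomes 1 to 19 as a whole. The acetylated sequence therefore held H3K36me3 at close to the share found over whole chromosomes.

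Overlaps ranged down to the single base the rule asks for. At 651 dual-mark regions (63.1%) the smallest of the 3 overlaps was at least 200 bases, and at 71 (6.88%) it was under 50. Asking for 200 bases in every overlap left 639 regions. The smallest belonged to chr9:62359075-62359200, which lay wholly in H3K36me3 of both genotypes but shared 1 base with SmoM2 H3K27ac. Just outside the rule, chr11:120345099-120346367 and chr16:23107188-23108598 each ended 13 bases short of the farther of the H3K36me3 lists. Meeting the rule did not always mean that the marks of both genotypes met at the same base. At 753 regions (73.0%) at least 1 base carried both marks in both genotypes, and at 279 (27.03%) none did. Such a base needs SmoM2 acetylation as well as H3K36me3 of each genotype. The 279 regions therefore do not show that H3K36me3 itself lay at different bases. The bases with both marks within the dual-mark regions came to 1361 kb (DKO) and 633 kb (SmoM2). Of these, 542 kb were common to both, which is 39.9% of the DKO and 85.7% of the SmoM2 length. The SmoM2 bases were counted only within DKO acetylated regions, so they needed only DKO H3K36me3 to be common. The DKO bases needed both SmoM2 acetylation and SmoM2 H3K36me3. The gap between these shares thus follows in part from the way of counting.

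Most dual-mark regions were not wholly inside 1 H3K36me3 region in either genotype. In the DKO list 303 regions (29.4%, 26.7–32.2%) had every base within 1 H3K36me3 region, and in the SmoM2 list 221 did (21.4%, 19.02–24.02%). Over all 15299 shared regions these shares were 2.27% and 1.58%, and the rule itself raises them. Inside in both genotypes, the arrangement called inside from here on, were 192 regions (18.6%, 16.3–21.1%). Inside in neither, called edge regions, were 700 (67.8%, 64.9–70.6%). The name covers every other arrangement, including 79 regions with H3K36me3 only within them in both lists. DKO H3K36me3 covered 0.205% to 99.8% of edge regions, with a median of 31.3%. The remaining 140 were inside in 1 genotype, 111 of them in DKO tumours and 29 in SmoM2 tumours. In 17 of 19 chromosomes the share inside H3K36me3 was greater with the DKO list, which also covers more of the genome and was cut into fewer, wider regions.

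**Figure D1:**
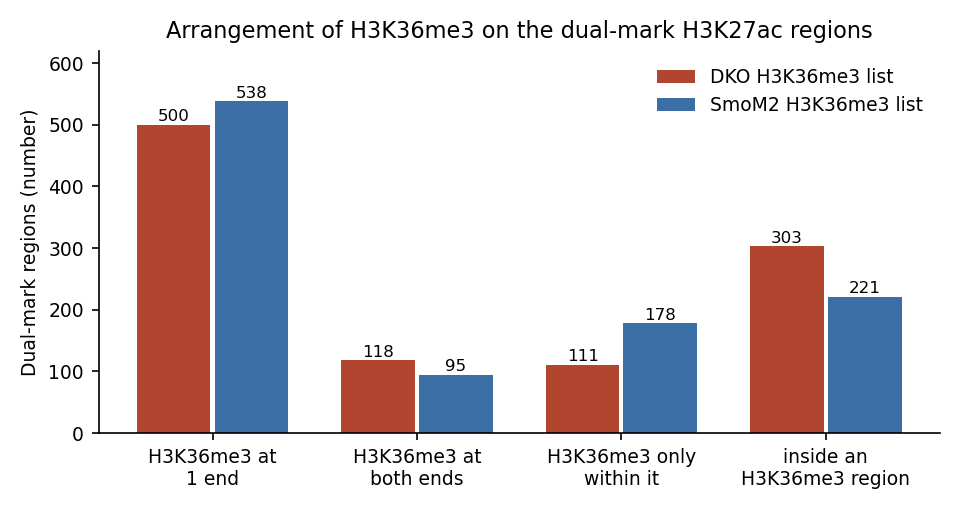
Number of dual-mark regions (of 1032) by where H3K36me3 lies on the DKO acetylated region, read from the DKO (red) and the SmoM2 (blue) H3K36me3 list. Contact at 1 end was the most frequent arrangement in both lists (500 and 538 regions), and more regions were wholly inside with the DKO list (303 against 221).

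Contact at a single end was the usual form in either list. H3K36me3 ran over 1 end of 500 regions in the DKO and 538 in the SmoM2 list, over both ends of 118 and 95, and lay only within the acetylated region at 111 and 178. The arrangement was the same in both genotypes at 690 regions (66.9%). Edge regions with H3K36me3 at 1 end in both lists numbered 367, and at 337 of them (91.8%) it was the same end. That end was the one with the lower coordinate at 176 of the 337, so neither direction along the chromosome prevailed.

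At the same-ended edge regions, chosen because both H3K36me3 lists cross the same end, the H3K36me3 border reached a median of 479 bases (382–569) into the DKO acetylated region in DKO tumours and 359 bases (287–430) in SmoM2 tumours. The borders were at most 500 bases apart in 277 of 337 regions (82.2%), but the choice of regions bounds this distance, since at 171 (DKO) and 203 (SmoM2) the overlap itself was no more than 500 bases. The DKO border was further in at 205, the SmoM2 border at 131, and both were at the same base at 1. The median shift was 54 bases (25–82) inwards in DKO tumours. On the acetylation side, the region ended further out, over the H3K36me3 region, in DKO tumours at 252 regions and in SmoM2 tumours at 85, with a median of 247 bases (201–316). At the median the contact zone was thus wider in DKO tumours from the acetylated as well as from the H3K36me3 side. The regions were taken from the DKO acetylation list, which bears on these directions.

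The 477 edge regions with H3K36me3 at 1 end in the DKO list have more of the mark on that flank by the way they were chosen, and the values give its extent. In DKO tumours 71.2% of the 5 kb beyond that end was in H3K36me3, compared with 29.2% of the 5 kb beyond the other end. Read from the SmoM2 list with the same orientation, the values were 59.8% and 23.3%, and the marked side held more at 384 regions and less at 90. Within 10 kb the SmoM2 values were 51.6% and 26.9%. The plot of both marks around these regions shows that H3K36me3 fell away within the acetylated stretch, to 25.4% of regions in DKO and 20.5% in SmoM2 tumours 1 kb inwards from the end, and declined more slowly outside it, to 79.0% and 66.2% at 1 kb outwards. The fall inwards follows in part from choosing regions that DKO H3K36me3 crosses at 1 end only. Further inwards the DKO value rose again, from 22.4% at 1400 bases to 38.6% at 10000 bases, where DKO H3K27ac was at 20.1%.

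**Figure D2:**
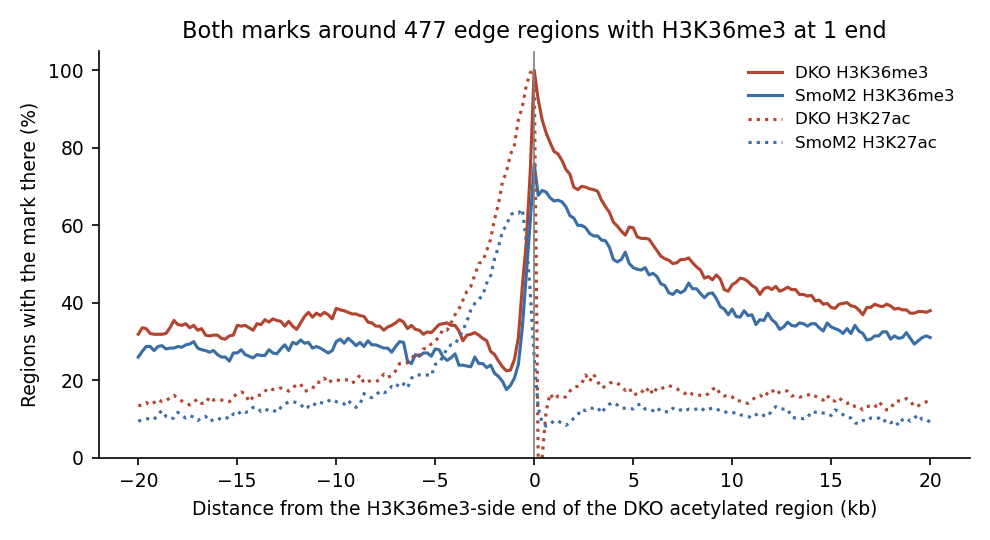
Percent of the 477 edge regions with H3K36me3 at 1 end (DKO list) that carry each mark at a given distance (kb) from that end of the DKO acetylated region, negative distances running through the region and positive ones away from it. All regions were turned so that H3K36me3 lies to the right. At 0 both DKO marks are at 100% by construction, and SmoM2 H3K36me3 is at 75.9%. At 2 kb beyond the end, H3K36me3 is at 69.8% in DKO and 61.8% in SmoM2 tumours.

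Inside regions were small patches in long H3K36me3 stretches. Their median width was 508 bp (393–573, n = 192), compared with 2522 bp (2282–2818, n = 700) for edge regions and 871 bp for shared regions touching no H3K36me3. Containment favours narrow regions, so this order follows in part from the definition. The H3K36me3 regions that held them had median widths of 10483 bp (DKO) and 7176 bp (SmoM2), against 938 and 621 bp for all regions of those lists. Containment likewise favours long H3K36me3 regions, so this difference too follows in part from the definition. The DKO acetylated region alone made up a median of 5.49% of the width of its DKO and 8.97% of its SmoM2 H3K36me3 region. Other acetylated regions in the same H3K36me3 region, and SmoM2 acetylation, were not counted in these values. The nearer end of that region was a median of 1640 bp (DKO) and 866 bp (SmoM2) away, and at least 1 kb away for 117 of the 192 (60.9%) and 85 (44.3%) respectively. They were spread over 169 DKO H3K36me3 regions, none of which held more than 3.

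Acetylation was less enriched at inside than at edge regions. The authors' fold enrichment in the DKO list, a value of each region within its own list, had a median of 3.66 at inside, 5.08 at edge and 4.48 at shared regions without H3K36me3. The SmoM2 partner regions are the SmoM2 H3K27ac regions they overlap, and the highest value among the partners had medians of 3.57, 4.52 and 4.06. Edge regions had 2 or more partners more often (23.9%) than inside regions (3.65%) or those without H3K36me3 (4.78%), which favours a higher value at edges. Broad regions carry higher values, and in the width class from 1000 bp to under 2000 bp the DKO medians were 4.00, 4.23 and 4.98. At that width both kinds of dual-mark region thus lay below the shared regions without H3K36me3. From 2000 bp to under 4000 bp they did so too, at 4.09 (inside) and 5.26 (edge) against 5.48. At 4000 bp and over edge regions, at 7.54, lay above those without H3K36me3, at 6.84. Edge regions of that class were still wider, with a median of 6660 bp against 5091 bp.

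Widths were then set against those of the SmoM2 partners. The classes sort regions by whether the DKO region fits within H3K36me3, which favours low ratios of DKO to SmoM2 width inside and high ones at edges, so the difference between the classes follows in part from the definition. The median ratio of DKO width to the summed width of the SmoM2 partners was 1.21 (1.17–1.26) over all dual-mark regions, 1.26 (1.21–1.30) for edge and 0.911 (0.710–1.07) for inside regions, and 1.14 for shared regions without H3K36me3. The DKO region was wider at 532 of 700 edge regions (76.0%) and at 89 of 192 inside regions (46.4%). A SmoM2 partner can extend beyond the DKO region, so a ratio under 1 does not show less acetylation. More than 1 SmoM2 region shared a base with the DKO region at 167 edge regions (23.9%), compared with 4.78% of shared regions without H3K36me3.

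The widest inside region, chr15:85522554-85538594, spanned 16.0 kb with a DKO fold enrichment of 5.69 and lay in a 26.5 kb H3K36me3 region in DKO and a 20.7 kb one in SmoM2 tumours. In SmoM2 tumours its acetylation was broken into 6 regions totalling 8.55 kb. It was no isolated patch, as it began 418 bases beyond the end of the edge region chr15:85481441-85522135, the third widest of that class. That neighbour was 40.7 kb wide in DKO tumours and overlapped a single SmoM2 region of 39.9 kb. H3K36me3 covered 42.8% of it in DKO and 35.3% in SmoM2 tumours. The H3K36me3 region over its end, the same end in both, took in 9567 bases (DKO) and 4162 bases (SmoM2). The other marked bases lay in its interior. This neighbour held 2 DKO Gli2 peaks, both with summits outside H3K36me3, and no SmoM2 peak.

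On chromosome 8, 7 dual-mark regions, 3 inside and 4 edge, lay within 75 kb to either side of the second widest inside region. That region, chr8:87242770-87250609 (7.84 kb, fold enrichment 5.60 in DKO and 4.75 in SmoM2 tumours), is counted among them and had no Gli2 peak. The edge region chr8:87228792-87241657 (12.9 kb, fold enrichment 6.63 in DKO tumours), 1112 bases to its left and named after its values were seen, reached into the same 15.0 kb DKO H3K36me3 region and had 1 DKO Gli2 peak. The edge region chr8:87287594-87325239, 37.0 kb to its right, was 37.6 kb wide with fold enrichments of 10.8 and 8.32 and 1 DKO Gli2 peak. The inside region with the highest −log10 q, chr5:125582433-125585915, was acetylated over 3.48 kb (DKO) and 3.08 kb (SmoM2) within H3K36me3 regions of 51.7 and 28.3 kb. Another, chr7:109146656-109150379, had a 33.4 kb H3K36me3 region around it in DKO and a 6.66 kb one in SmoM2 tumours. The last of the 5 widest, chr11:101043605-101047034, was 3.43 kb wide in DKO tumours and matched by only 0.706 kb in SmoM2 tumours.

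The widest edge region was chr13:112559537-112601305, at 41.8 kb. It carried 16.5 kb of H3K36me3 in DKO tumours and 13.1 kb in SmoM2 ones, and had no Gli2 peak of either genotype. The H3K36me3 region over its end, the same end in both, took in 7516 bases (DKO) and 6672 bases (SmoM2). The other marked bases lay in its interior. At chr5:37258638-37292571 (33.9 kb), H3K36me3 lay only in the interior in both genotypes and covered 28.6% and 13.5%. The highest H3K27ac value of all dual-mark regions was at chr5:124797492-124805868. This 8.38 kb region had a fold enrichment of 21.3 in DKO and 12.8 in SmoM2 tumours, H3K36me3 over 39.6% and 24.2%, and 3 DKO Gli2 peaks. High enrichment was not limited to broad regions, as chr11:115885073-115885796 reached 13.7 in DKO tumours over 0.724 kb, with 98 bases in DKO and 120 bases in SmoM2 H3K36me3.

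**Figure D3:**
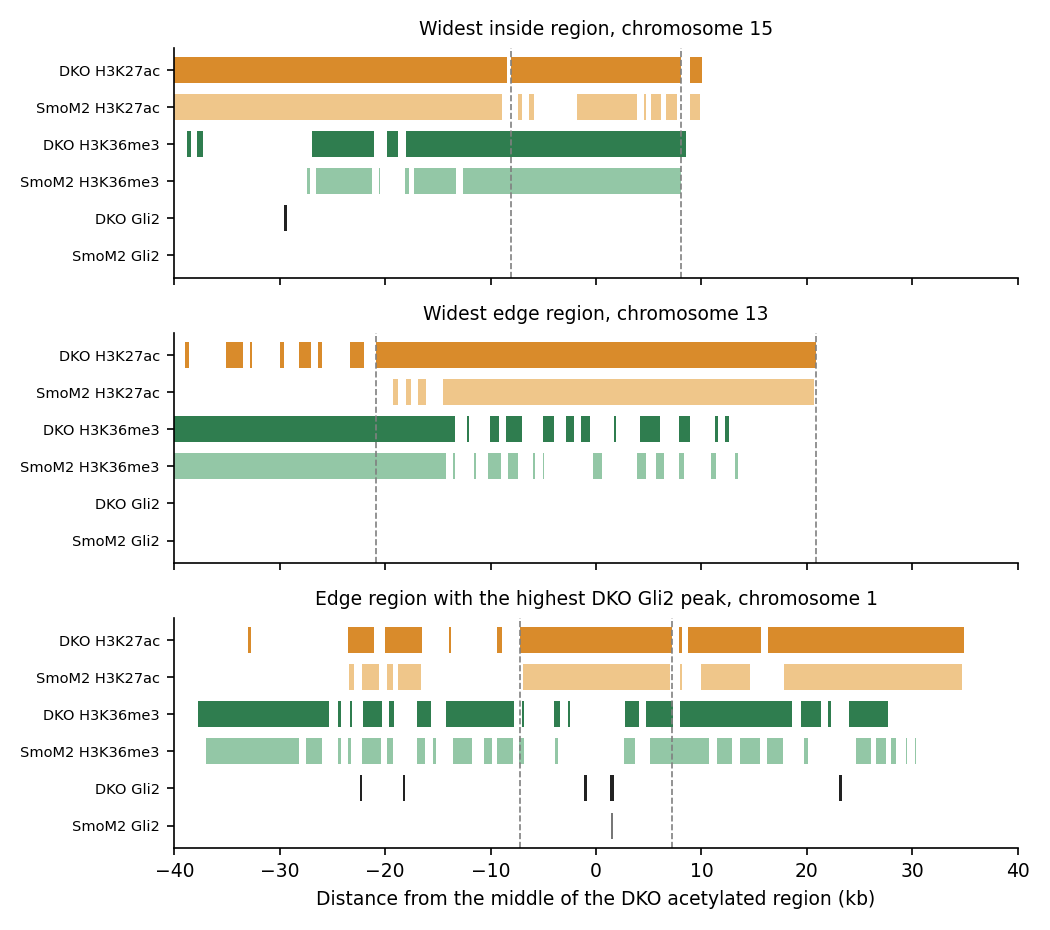
Maps of 3 dual-mark regions over 80 kb, with called regions of each list as blocks and distance from the middle of the DKO acetylated region in kb. Dashed lines mark its ends, and Gli2 peaks are drawn at least 0.25 kb wide. The widest inside region (chromosome 15) lies 418 bases from a broad edge region to its left, the widest edge region (chromosome 13) is entered by H3K36me3 from the left, and on chromosome 1 neither DKO Gli2 summit lies in H3K36me3.

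Gli2 peaks were found at more of the dual-mark regions than of other shared regions, nearly all of them edge regions. A DKO Gli2 peak overlapped 115 of 1032 dual-mark regions (11.1%, 9.37–13.2%), against 2.30% of all DKO H3K27ac regions, 3.93% of all shared regions and 3.26% of shared regions without H3K36me3. The difference from the last was 7.88 percentage points (Newcombe interval 6.08–9.97). The share was higher in the dual-mark regions in 16 of 19 chromosomes. Shared regions touching H3K36me3 in 1 genotype lay between the 2 sets, with a peak at 41 of 618 (6.63%, 4.93–8.88%). Edge regions had a peak at 110 of 700 (15.7%, 13.2–18.6%), inside regions at 2 of 192 (1.04%, 0.286–3.72%) and the 140 others at 3. Edge exceeded inside regions by 14.7 points (11.0–17.7).

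These differences narrowed at equal width. Wider edge regions and wider regions without H3K36me3 overlapped Gli2 more often, and edge regions were the widest. Inside regions, with 2 peaks in all, show no trend that can be read. When shared regions without H3K36me3 were weighted to the widths of the dual-mark regions, in 5 classes, 8.63% of them had a DKO peak, and the difference narrowed to 2.51 points (0.670–4.63). This interval treats the weighted share as a plain share of all 13649 regions. Yet 20.3% of the weight rests on the 309 regions of 4000 bp and over, so it is too narrow. Edge regions weighted to the widths of inside regions would have had a peak at 2.85%, which left 1.80 points (-1.05 to 3.50), so edge and inside regions were not distinguishable at equal width. At 1 to 3 kb the difference between dual-mark and other shared regions was 1.15 points (-0.855 to 4.03). At 4000 bp and over, 74 of 210 dual-mark regions (35.2%) and 75 of 309 others (24.3%) had a peak, a difference of 11.0 points (3.00–18.98), but dual-mark regions of that class were still wider, with a median of 6743 bp against 5091 bp. From 4000 bp to under 8000 bp, where median widths were 5122 and 4950 bp, the difference was 4.42 points (-4.55 to 14.1), and at 8000 bp and over, with 26 regions without H3K36me3, it was 21.6 points (0.128–37.7). Counted per acetylated Mb at 4000 bp and over, overlaps with DKO peaks were 55.2 and 52.6.

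**Figure D4:**
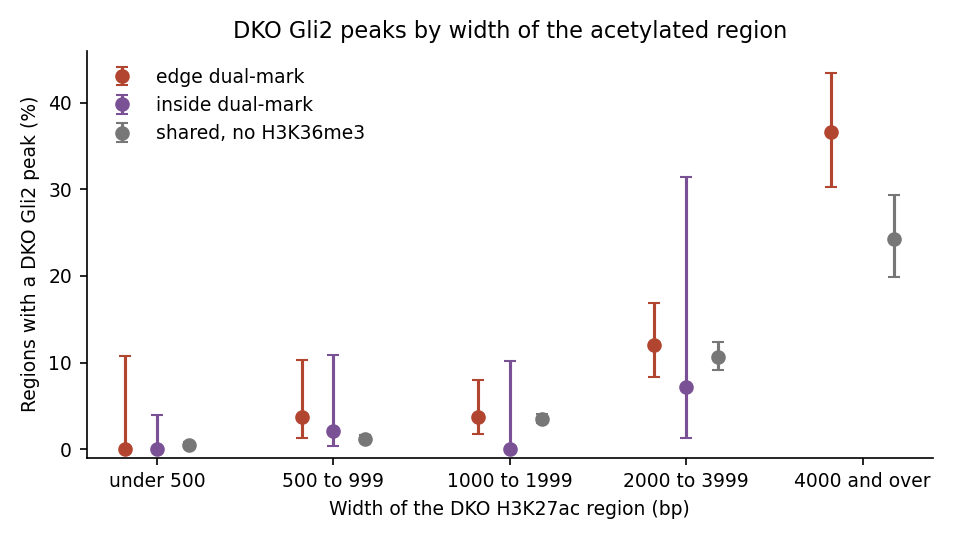
Percent of DKO H3K27ac regions with a DKO Gli2 peak, by region width in bp, for edge and inside dual-mark regions and for shared regions touching no H3K36me3, with Wilson 95% intervals. Classes with fewer than 10 regions are left out. Edge regions and regions without H3K36me3 rise with width, inside regions rest on 2 peaks, and the intervals of the 3 kinds overlap below 4000 bp, while at 4000 bp and over edge regions are at 36.6% and regions without H3K36me3 at 24.3%.

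SmoM2 tumours had few Gli2 peaks in all. A SmoM2 peak overlapped 12 dual-mark regions (1.16%, 0.666–2.02%), against 0.245% of all DKO H3K27ac regions, 0.418% of shared regions and 0.315% of those without H3K36me3. All 12 were edge regions, and all 12 also had a DKO peak. Among shared regions touching H3K36me3 in 1 genotype, 9 of 618 had a SmoM2 peak (1.46%, 0.768–2.74%). The raised share was thus not particular to dual-mark regions. Widths were not matched here. Overlaps per acetylated Mb were 3.73 in dual-mark regions, 7.28 in those touching H3K36me3 in 1 genotype and 2.76 in those without H3K36me3. For inside regions 0 of 192 allows a share of up to 1.56%, taken as 3 counts of 192 (the Wilson upper bound is 1.96%), and edge and inside regions were not distinguishable for SmoM2 Gli2, with a difference of 1.71 points (-0.379 to 2.97).

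Within the dual-mark regions, Gli2 summits stood apart from H3K36me3. The DKO peaks had 148 summits inside dual-mark regions, of which 19 (12.8%, 8.37–19.2%) were at a base in DKO H3K36me3. H3K36me3 covered on average 41.2% of the regions holding these summits, so an even spread would have put 60.9 of them there. With the SmoM2 H3K36me3 list, 18 of the 148 (12.2%, 7.83–18.4%) were in the mark, against 31.7% of the sequence. Of 111 regions with a summit, 95 (85.6%) had every summit outside DKO H3K36me3. Several summits can share a region, so they are not independent, and the intervals are too narrow to that extent. Among the 12 SmoM2 summits, 2 were in SmoM2 H3K36me3, against 35.7% of the sequence (interval 4.70–44.8%), too few to tell from an even spread.

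Position along the region was then taken into account. At edge regions with H3K36me3 at 1 end in the DKO list, 81 DKO summits were placed along the region in 5 equal parts. The middle part held 31 (38.3%), the part next to the H3K36me3 end 7 (8.64%) and the part at the other end 9 (11.1%), while DKO H3K36me3 covered 27.4%, 81.3% and 9.41% of those parts. With summits distributed over the parts as observed and H3K36me3 at its mean coverage in each, 24.0 summits would lie in the mark, and 7 did. Region width was compared over edge regions of all arrangements, not only those with H3K36me3 at 1 end. In regions under 10 kb, 10 of 93 summits were in the mark, against 35.3% of the sequence. In wider ones 6 of 50 were, against 48.1%, so summits were outside H3K36me3 to a like degree.

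**Figure D5:**
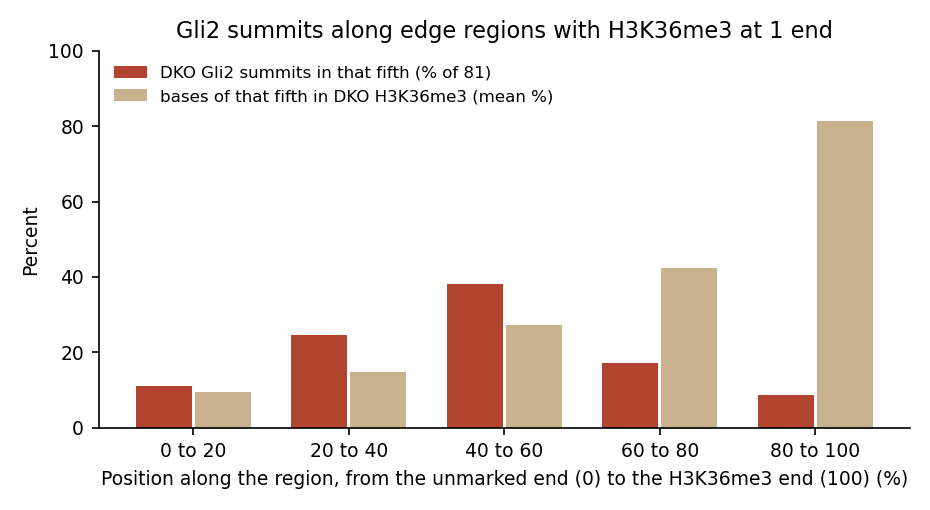
Position of 81 DKO Gli2 summits along edge regions with H3K36me3 at 1 end, in 5 equal parts from the unmarked end (0%) to the H3K36me3 end (100%), as percent of summits (red), with the mean percent of each part in DKO H3K36me3 (tan). The middle part holds 38.3% of the summits, and the last part holds 8.64% with 81.3% of its sequence in H3K36me3.

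The peaks themselves were of ordinary strength. The 154 DKO peaks overlapping dual-mark regions (11.0% of the 1397 on these chromosomes) had a median fold enrichment of 10.5 (9.13–11.7), and the 486 in shared regions without H3K36me3 had 10.4 (10.0–11.0). Of the 154, 14 (9.09%, 5.49–14.7%) overlapped a SmoM2 peak, against 7.20% (5.22–9.85%) of the 486. The intervals overlap in both cases, so neither strength nor recurrence in SmoM2 tumours was distinguishable. The 115 regions comprised 89 with 1 DKO peak and 26 with more, up to 6.

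Of the 12 dual-mark regions bound by Gli2 in both genotypes, the strongest DKO peak was in chr1:157051062-157065440. This 14.4 kb region had 2 DKO peaks, the higher with a fold enrichment of 87.4, and 1 SmoM2 peak at 25.2. H3K36me3 covered 33.2% of it in DKO and 26.2% in SmoM2 tumours, and neither DKO summit was in the mark. The regions with 6 DKO peaks, the highest number found, were chr11:120112000-120134517 (22.5 kb) and chr13:63657124-63671030 (13.9 kb), and no DKO summit in either was in DKO H3K36me3. The first was covered by H3K36me3 over 30.8% in DKO and 22.3% in SmoM2 tumours, and the second over 44.4% and 43.5%.

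A DKO summit lay in DKO H3K36me3 at 16 regions, of which the mark covered 39.6% to 100% (median 71.4%), compared with 1.97% to 92.0% (median 31.5%) of the 95 regions with every summit outside it. Greater coverage leaves less room outside the mark. Of the 10 regions with the highest DKO peaks among those with Gli2 peaks of both genotypes, 4 were among the 16. At chr11:59996401-60024702 (28.3 kb), H3K36me3 covered 75.4% in DKO and 59.0% in SmoM2 tumours, and 2 of 3 DKO summits were in the mark. At chr16:44483004-44512725 (29.7 kb), with coverage of 91.6% and 74.6%, 1 of 2 was. At chr10:80857746-80866390 (8.65 kb), covered over 83.2% and 54.4%, the single DKO summit was in the mark, as were both DKO summits at chr7:86641175-86682631 (41.5 kb, 63.7% and 46.01%). In the other 6 of these 10, coverage in DKO tumours was 15.4% to 44.4% and no DKO summit was in the mark. The 2 inside regions with a Gli2 peak, named after their values were seen, were chr14:26395554-26398164 and chr17:56732937-56733666. Their fold enrichments for DKO Gli2 were 7.39 and 10.8, and their acetylation in SmoM2 tumours was limited to 0.196 and 0.137 kb.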

How the data were processed

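Peaks were analysed as deposited for 6 lists, each standing for 2 libraries. Build mm9 and the tools MACS2, BWA, bedtools and Trimmomatic (0.36) are named, per the submitters' processing notes, without roles or settings, and how libraries were combined is not stated there. Per the labels, the protocol also names an Olig2 antibody on the beads, which no sample lists. The deposited columns hold start, end and summit positions, a fold enrichment (ratio), a q-value as −log10, and a whole-number score, nearly always 10 times −log10 q with decimals dropped. No file states read numbers, so depth is unknown.

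Overlaps of at least 1 base, Wilson and Newcombe intervals (95%), exact binomial intervals of medians and base coverage were computed with numpy 2.4.6, scipy 1.17.1, statsmodels 0.14.6 and pandas 2.3.3 in Python 3.11.15. Figures used matplotlib 3.10.9. Chromosome lengths came from GenomeInfoDb 1.38.1. On simulated data, 1000 of 1000 planted arrangements were recovered. Named regions were, in each of the inside and edge classes, the 5 widest and the 5 with the highest −log10 q, and up to 10 with Gli2 peaks of both genotypes by DKO Gli2 −log10 q, and some of these are given in full. Members, lists and settings were chosen with earlier results of these data known. The summit comparison and the width weighting were added after seeing the data. No mm9 genome or annotation was used, so no sequences or genes are given. Input libraries, which have no peak list, were not analysed here.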

Additional observations from a re-analysis of the deposited data

Results flagged for a closer look

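On chromosome X, which the rule leaves out, 9 regions met the other conditions, above the 3 that a count of 0 allows. They were 3.44% of the 262 shared acetylated regions there, with 4 inside and 2 edge regions.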

How the results depend on the processing

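Each setting changed 1 choice. Of 95 values under planned settings 58 stayed within their interval, on the same side of 0 or, for counts, within 1.5 times, 35 moved and 2 lost the difference; of 8 under added settings 6 stayed, 1 moved and 1 lost it, and none reversed. For bases, the interval took the number of regions as n. With an overlap of at least 50% of the narrower region there were 545 dual-mark regions, 3.79% of shared ones, inside H3K36me3 at 41.3% (DKO list), 33.2% (SmoM2 list) and 30.3% (both), with 48.1% of bases in DKO H3K36me3. With at least 200 bases there were 639 (5.20%), 14.9% with a DKO Gli2 peak and 45.7% of bases. With histone −log10 q of at least 2 there were 535 (4.84%), inside at 21.7%, 15.0% and 12.5%, with DKO and SmoM2 Gli2 at 16.4% and 2.24%. With histone fold enrichment of at least 3 they were 5.41% of shared regions, inside at 33.3%, 24.7% and 21.8%. Joining H3K36me3 regions at most 1 kb apart gave inside shares of 40.7%, 36.2% and 31.7%, 46.4% of bases, and 22.1% of DKO Gli2 summits in the mark against 46.3% of the sequence. Joining H3K27ac regions likewise gave 7.28% of shared regions, inside at 20.0%, 13.1% and 11.5%, 13.6% with DKO Gli2 and 38.7% of bases. Counted in the SmoM2 list they were 6.15%, inside at 39.9%, 30.1% and 27.4%. So the share inside H3K36me3 in both genotypes ran from 11.5% to 31.7%, and the DKO list gave more than the SmoM2 list under each of these settings. Within 1 to 3 kb, the Gli2 differences were 1.15 points (dual-mark against no H3K36me3) and 3.71 points (edge against inside, -6.08 to 7.59), and with edge regions weighted to inside widths 1.80 points. The cause of the other moves was not tested. The share of DKO Gli2 summits in the mark was 10.8% to 22.1% over its settings. No paired analysis was possible because the libraries of a group were merged into 1 list, and replicates could not be left out for the same reason.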

Other observations

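Dual-mark regions lay among other acetylated regions. The gap to the nearest DKO H3K27ac region had a median of 989 bp, against 7637 bp for shared regions without H3K36me3, and another region lay within 1 kb of 521 of them (50.5%), compared with 26.1%. Inside regions were no exception, with 100 of 192 (52.1%). Shared regions touching H3K36me3 in 1 genotype had a median gap of 1139 bp (930–1446), against 839–1076 for the dual-mark median. Short gaps were thus not particular to dual-mark regions. No gap among these regions was below 413 bp.

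Their share of shared acetylated regions differed between chromosomes, from 3.17% on chromosome 3 and 3.25% on chromosome 13 to 8.91% on chromosome 4 and 9.02% on chromosome 8. Chromosome 11 had the most (103) and chromosome 13 the fewest (20). The share inside H3K36me3 in both genotypes ran from 10.0% of 20 regions on chromosome 13 to 32.0% of 25 on chromosome 14.

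DKO H3K27ac regions with no SmoM2 counterpart carried more H3K36me3 than shared ones. DKO H3K36me3 covered 11.4% of their bases against 7.53%, and SmoM2 H3K36me3 9.33% against 5.43%. Of the DKO regions touching H3K36me3 in both genotypes, 41.9% (39.9–43.8%) were acetylated in SmoM2 tumours, compared with 53.8% (53.2–54.4%) of the others. Regions without a SmoM2 counterpart were narrow, with a median of 246 bp, and had a median −log10 q of 1.99, against 4.06 for shared ones.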
